A study of Mus musculus with 16 samples.

Results

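The comparison described here sets the 4 RNA-seq libraries labelled 9m OHC against the 4 libraries labelled 9m IHC, 8 of the 16 libraries of the series. The members were chosen by label alone, and every gene in the deposited table was examined. The libraries came from cochlear hair cells (HCs) of CBA mice (CBA/J in the study's methods), without any treatment. Male and female mice were used in the study. Each library was made from about 1000 HCs that had been released by collagenase from the organ of Corti and picked by glass pipette, with IHCs and OHCs told apart by shape under the microscope. The other 8 libraries carry the labels 26m OHC and 26m IHC, 4 each, and differ from the first 8 by their age label. Cells of several mice went into each biological sample, but which libraries share a sample is not given in the labels.

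OHCs and IHCs are the outer and inner sensory cells of the cochlea. OHCs change length with membrane potential through the motor protein prestin, encoded by *Slc26a5*, and thereby amplify sound-evoked vibration. IHCs pass the signal to the auditory nerve at ribbon synapses, where otoferlin (*Otof*) acts as a calcium sensor of vesicle release and *Slc17a8* encodes the transporter that fills vesicles with glutamate. In adult mice these genes are the usual marks by which the cell types are told apart.

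Recovered sequencing depth was 19666190 to 21030345 mapped reads in libraries labelled 9m OHC and 28826644 to 31243721 in those labelled 9m IHC. Values above 0.1 RPKM (reads per kilobase of exon, scaled to the mapped reads of the library) were found for 12554 to 12576 genes per library labelled 9m OHC and for 14373 to 14432 genes per library labelled 9m IHC. Libraries 1 and 2 of a group, and likewise libraries 3 and 4, differed by no more than about the sampling noise (mean chi-square per gene 0.983 to 1.081 in 8 such pairs, against 2.732 to 3.442 in the 16 other pairs of libraries of the same group). The mean of such a pair served as 1 sample, which left n = 2 per group. Standard errors (SE) and adjusted p-values therefore measure only the spread between 2 averaged samples, which may be technical. The median coefficient of variation across genes was 2.59% under the label 9m OHC and 2.22% under 9m IHC. In such bulk RNA, fewer cells of a type and less RNA per cell cannot be told apart.

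The labels were first checked against the genes that define both cell types. *Slc26a5* (prestin, chr5:21810655-21865604 in GRCm38) had 0.203, 0.139, 0.215 and 0.131 RPKM in the 4 libraries labelled 9m OHC, against 1.1, 0.969, 1.23 and 0.99 RPKM in the 4 labelled 9m IHC. The groups did not overlap, and the libraries labelled OHC were the lower ones (log2 fold change −2.11 ± 0.07 on the log2(RPKM + 0.1) scale, with ± giving the SE here and below; adjusted p = 6.2e-06, limma). Its mean was 1.85 RPKM in libraries labelled 26m OHC and 816 RPKM in libraries labelled 26m IHC. Prestin was thus at most 1.23 RPKM in the 8 libraries of 9 months, and the libraries that held it in quantity carry an IHC label. The level of prestin goes against the label OHC in these libraries, and the groups are called by their labels throughout.

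Another gene that marks OHCs, *Ocm*, encodes the calcium buffer oncomodulin. It had 99, 97.5, 95.2 and 96.1 RPKM in libraries labelled 9m OHC and 31.4, 32, 33.1 and 35.2 RPKM in those labelled 9m IHC, and it was higher under the OHC label (log2 fold change 1.56 ± 0.04, adjusted p = 3.0e-06). Both levels were low beside the means of 1151 RPKM under the label 26m OHC and 12920 RPKM under 26m IHC. *Chrna10*, a subunit of the nicotinic receptor through which efferent fibers inhibit OHCs, was the other member of the list that rose. Its values were 2.64, 2.91, 2.69 and 2.61 RPKM against 1.26, 1.03, 0.818 and 0.934 RPKM (log2 fold change 1.35 ± 0.13). Its partner subunit *Chrna9* was at 5.68 to 5.88 RPKM against 6.72 to 7.53 RPKM, a difference of −0.30 ± 0.04 on the log2 scale that was below the 2-fold threshold.

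A gene counted as called when limma's adjusted p was 0.1 or less and its level changed 2-fold or more. Of the 15 genes listed for OHC specialization, 2 rose and 4 fell in libraries labelled 9m OHC, where 17.3% of all tested genes rose and 48.5% fell. The median log2 fold change of the list was −0.14, beside −0.93 over all genes, and it was above 0 under median ratio scaling (0.42) and quantile normalization (0.57). The summed level of the list was 144.7 to 149.7 RPKM under the label 9m OHC and 121.7 to 125.1 RPKM under 9m IHC, most of it *Ocm*. It was 1271 to 1285 RPKM under 26m OHC and 16720 to 16920 RPKM under 26m IHC. Among the members that fell were *Lmod3*, which encodes a leiomodin that nucleates actin filaments (0.792 to 0.929 RPKM against 5.79 to 6.55 RPKM), and *Tmem63b*, a mechanosensitive channel (0.748 to 0.895 RPKM against 18.8 to 19.9 RPKM). *Ikzf2*, encoding Helios, a regulator of OHC identity, was at 0.955 to 1.07 RPKM against 0.688 to 0.795 RPKM, with a mean of 7.97 RPKM under the label 26m IHC.

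Genes of IHC specialization were abundant on both sides. *Otof* (chr5:30367062-30461932) had 141, 139.7, 137 and 136 RPKM in libraries labelled 9m OHC and 355, 358, 341 and 344 RPKM in those labelled 9m IHC. It fell in libraries labelled 9m OHC (log2 fold change −1.34 ± 0.03, adjusted p = 1.7e-06) but stayed well above the mean of 23.5 RPKM under the label 26m IHC. *Slc17a8* (chr10:89574020-89621253) had 88.6, 88.1, 92.7 and 92.7 RPKM under the label 9m OHC, against 43.7, 43.7, 45.4 and 45 RPKM under 9m IHC. This gene was higher under the OHC label at 9 months (log2 fold change 1.02 ± 0.03, adjusted p = 5.8e-06). Its fold change lay close to the 2-fold threshold and slipped just below it, to 0.99 on the log2 scale, without the second averaged sample labelled 9m OHC. It was also no longer called, by less than the rounding shows, without the first averaged sample labelled 9m IHC.

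The widest difference within the list was that of *Tbx2*, which encodes a transcription factor needed for IHC identity. Its values were 5.16, 5.44, 5.53 and 5.92 RPKM in libraries labelled 9m OHC and 107, 108, 105 and 105 RPKM in those labelled 9m IHC (log2 fold change −4.25 ± 0.04, adjusted p = 5.2e-07). *Atp2a3*, a calcium pump of the endoplasmic reticulum, fell as well (93.6 to 99.8 RPKM against 699 to 736 RPKM), as did *Dnm1*, the dynamin of synaptic vesicle retrieval (14.1 to 14.6 RPKM against 55.1 to 57.6 RPKM). *Calb2*, encoding the calcium buffer calretinin, was at 1596 to 1623 RPKM against 3136 to 3165 RPKM, and its log2 difference of −0.97 ± 0.02 fell just short of the threshold. *Dnajc5b*, a cysteine string protein, was at 405 to 411 RPKM against 235 to 243 RPKM. *Slc7a14*, a lysosomal transporter, was at 20.7 to 22.3 RPKM against 38.2 to 39.4 RPKM, and *Shtn1* at 6.69 to 7.84 RPKM against 9.65 to 10.3 RPKM, both below the threshold. *Fgf8*, a growth factor of IHCs, was listed at 0 RPKM under the label 9m OHC and averaged 0.0742 RPKM under 9m IHC, below the filter of 0.1 RPKM.

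In all, 1 of the 9 tested members of the IHC list rose and 4 fell, with a median log2 fold change of −0.97, close to that of all genes. The summed level of the list was 2374 to 2403 RPKM under the label 9m OHC and 4695 to 4728 RPKM under 9m IHC. It was 2252 to 2287 RPKM under 26m OHC and 290.9 to 299.8 RPKM under 26m IHC. By these sums the IHC list exceeded the OHC list in all 8 libraries of 9 months and in the 4 labelled 26m OHC, and the OHC list exceeded the IHC list in the 4 labelled 26m IHC.

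Measured by these genes, both 9-month groups carried the IHC pattern, and the contrast did not set OHCs against IHCs. Whether the columns labelled 9m OHC and 26m IHC had changed places in the deposited table was not tested. If they had, each fold change of 9m OHC over 9m IHC given here would compare IHCs of 26 months with IHCs of 9 months, and the contrast would be one of age. The comparison of 26m OHC with 26m IHC would likewise become one of age, with OHCs of 9 months in the place of 26m IHC. Such an exchange would not alter the libraries labelled 26m OHC, in which *Slc26a5* averaged 1.85 RPKM.

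**Figure D1:**
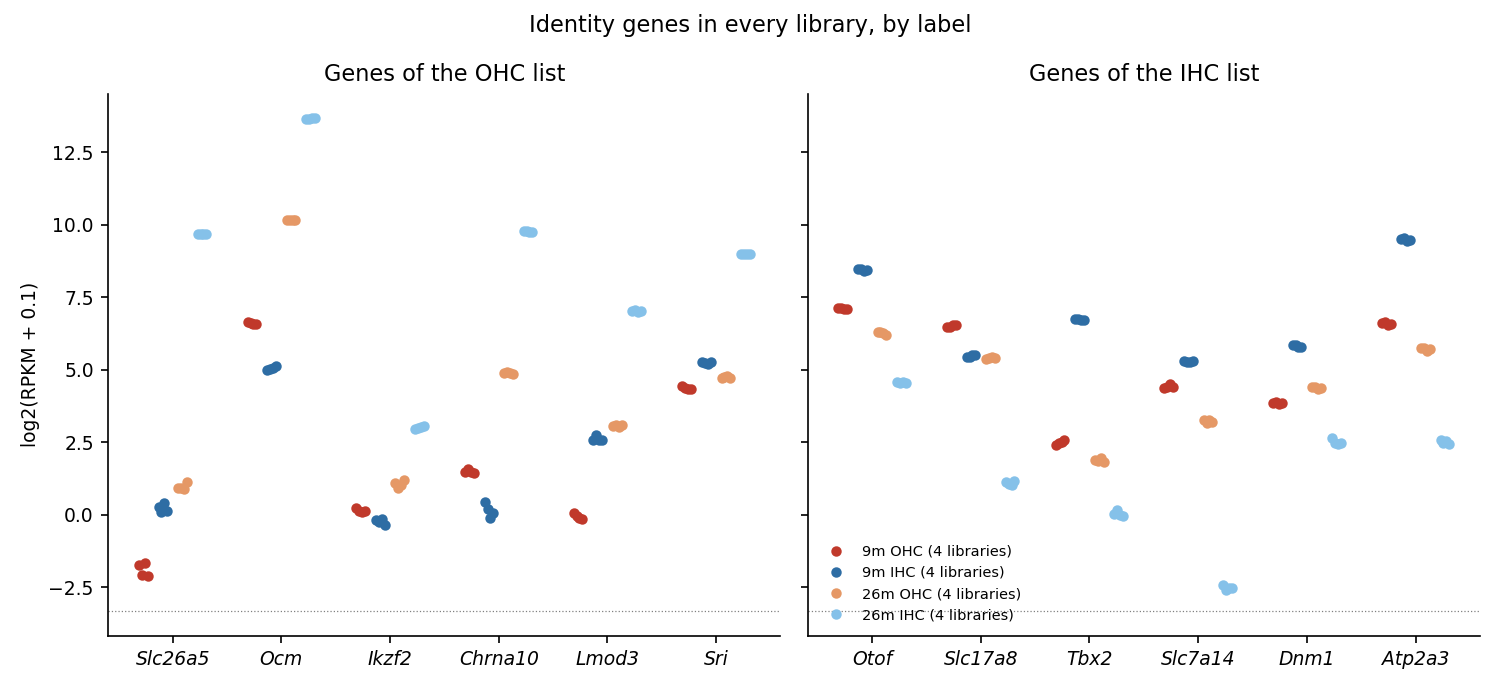
Level of 6 genes of the OHC list (left) and 6 genes of the IHC list (right) on the log2(RPKM + 0.1) scale, with a point for each of the 4 libraries of every label. The dotted line marks 0 RPKM. *Slc26a5* reached at most 1.23 RPKM in the 8 libraries of 9 months, and the 4 libraries labelled 26m IHC stood highest for the 6 OHC genes and lowest for the 6 IHC genes.

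Genes common to both HC types mostly fell or passed no threshold. Of 11 tested genes of the general HC list, 0 rose and 6 fell (median log2 fold change −1.21). Among the genes tested at 9 months as a whole, 17.3% rose and 48.5% fell, and the median was −0.93. The share of the list that fell thus lay near this background, and falls were not particular to HC genes. *Myo7a*, the unconventional myosin of hair bundles, was at 8.39 to 8.67 RPKM in libraries labelled 9m OHC and 39.6 to 41.9 RPKM in those labelled 9m IHC (log2 fold change −2.24 ± 0.03). *Myo6*, the myosin at the stereocilia base, was at 67.3 to 68.2 RPKM against 157 to 160.1 RPKM (log2 fold change −1.23 ± 0.02). *Gfi1*, a transcriptional repressor of HCs, also fell (23.7 to 24.9 RPKM against 55.1 to 57.6 RPKM), and so did *Jag2*, a Notch ligand (0.0247 to 0.0376 RPKM against 4.68 to 5.24 RPKM). *Pou4f3*, the transcription factor on which HC survival depends, had 119.9, 117, 116 and 119.5 RPKM against 131, 130.5, 126 and 129 RPKM, a log2 difference of −0.13 ± 0.02. *Atoh1*, which starts HC development, was listed at 0 RPKM in all 4 libraries labelled 9m OHC and at 0.89 to 1.06 RPKM in those labelled 9m IHC.

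The sum of the general HC list was nevertheless higher under the OHC label, at 2080 to 2156 RPKM against 1625 to 1675 RPKM. Calcium-binding proteins made up most of it. *Cabp2* was at 1365 to 1417 RPKM against 891 to 928 RPKM, and *Pvalb*, encoding parvalbumin, at 493 to 515 RPKM against 336 to 343 RPKM. Neither reached the 2-fold threshold.

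Across the transcriptome, the difference between these labels was wide and lopsided. Of 15335 tested genes, 10085 (65.8%) were called, with 2650 rises and 7435 falls under the label 9m OHC. The 4 libraries of a label did not overlap with the 4 of the other for 14187 genes (92.5%). The median log2 fold change was −0.93, and 10% of the genes were below −2.99 and 10% above 1.72. The surplus of falls depended on the scale, since median ratio scaling moved the median to −0.23 and the share of rises among calls to 43.3% (26.3% as deposited), and quantile normalization moved them to −0.06 and 48.0%. At a 4-fold threshold, 1248 genes were higher and 3617 lower. Of the genes at 1 RPKM or more in 1 label and at 0 in all libraries of the other, 112 (59 protein-coding) were found under the label 9m OHC and 378 (317 protein-coding) under 9m IHC.

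The clearest rise was that of the mitochondrially encoded genes, which specify the core subunits of the respiratory chain and are transcribed within the organelle. All 13 rose, with a median log2 fold change of 3.05. *mt-Nd3*, a subunit of complex I, had 2148, 2123, 2194 and 2247 RPKM in libraries labelled 9m OHC and 95.3, 94.4, 100.2 and 111 RPKM in those labelled 9m IHC (log2 fold change 4.44 ± 0.06, adjusted p = 5.9e-07). This gene had the largest fold change of the 13, and 90.9% of its 75-base windows also occur in transcripts of other genes. *mt-Atp6*, a subunit of the ATP synthase, was the most abundant, at 25180 to 26180 RPKM against 2990 to 3215 RPKM, and all of its windows are shared. *mt-Cytb*, of complex III, shares no window with another gene and was at 10190 to 10340 RPKM against 1442 to 1493 RPKM (log2 fold change 2.81 ± 0.03). The 13 genes together took 9.27% to 9.56% of the mapped reads under the label 9m OHC and 1.16% to 1.22% under 9m IHC.

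The cytosolic ribosomal protein genes rose nearly as a block. Of 79 genes, 76 rose and 0 fell, with a median log2 fold change of 2.64. Their share of the mapped reads was 2.79% to 2.87% under the label 9m OHC and 0.454% to 0.456% under 9m IHC. *Rps29*, the most abundant, had 1107, 1104, 1046 and 1077 RPKM against 119, 117, 115 and 118 RPKM (log2 fold change 3.20 ± 0.03). *Rps27* was at 678 to 697 RPKM against 30.3 to 32.2 RPKM (log2 fold change 4.44 ± 0.02, adjusted p = 5.0e-07). The exceptions were *Rps2*, *Rpl21* and *Rpl27*, with log2 fold changes of −0.41, 0.58 and 0.78, none of which reached the 2-fold threshold.

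*Rps12* had the largest fold change of the list, but its values scattered widely within a label. They were 54, 15.6, 41.2 and 11.7 RPKM in libraries labelled 9m OHC and 1.57, 0.605, 0 and 0 RPKM in those labelled 9m IHC (log2 fold change 6.47 ± 1.19, adjusted p = 0.0043). For this gene, libraries 1 and 2 labelled 9m OHC, which otherwise differed by sampling noise, differed more than 3-fold, and its fold change is uncertain.

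Most vertebrate ribosomal protein transcripts start in a pyrimidine tract through which their translation is controlled. Starts of 4 members, chosen after their values were seen, are printed to show how the genes that rose together look there, from 20 bases before to 30 bases from the annotated start (RefSeq, GRCm38.p6), with the first CTTTT or CTTTC within 15 bases on either side of the start in capitals. *Rpl41* is shown because it rose without such a match.
Rps27 (chr3:90213619-90213668, minus strand): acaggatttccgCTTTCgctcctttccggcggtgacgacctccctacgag
Rpl35 (chr2:39005102-39005151, minus strand): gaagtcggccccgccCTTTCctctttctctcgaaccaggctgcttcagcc
Rps6 (chr4:86857338-86857387, minus strand): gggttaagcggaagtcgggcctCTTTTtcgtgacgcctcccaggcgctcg
Rpl41 (chr10:128549139-128549188, minus strand): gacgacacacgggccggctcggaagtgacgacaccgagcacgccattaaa
The motifs differ in their last letter only, so no position holds both. On the strand of the gene, 21 of the 58 ribosomal protein genes with a sequence (36.2%) held a match within 15 bases of the start, against 7.2% of the tested genes and 8.1% of all genes with a sequence. On the opposite strand the shares were 6.9% of ribosomal protein genes and 7.4% of all genes. Among called genes the gene strand held a match for 9.0% of those that rose and 6.3% of those that fell, and among nuclear genes of the respiratory chain for 8.2%.

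The log2 fold changes of *Rps27*, *Rpl35* and *Rps6*, whose starts held a match, were 4.44, 3.52 and 2.51. That of *Rpl41*, whose start held none, was 3.08 and lay within their range.

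Genes of the respiratory chain encoded in the nucleus rose less uniformly. Of 74 genes, 37 rose and 4 fell, with a median log2 fold change just under 1.0. *Ndufa1*, an accessory subunit of complex I, had 1211, 1215, 1201 and 1190 RPKM in libraries labelled 9m OHC and 384, 382, 387 and 389 RPKM in those labelled 9m IHC (log2 fold change 1.64 ± 0.02). *Atp5k*, a small subunit of the ATP synthase, was at 409 to 427 RPKM against 73.5 to 78.3 RPKM. The 4 genes that fell encode catalytic or electron-carrying subunits. *Ndufs1* of complex I averaged 5.27 RPKM against 39.2 RPKM, and *Sdha* of complex II 81.1 RPKM against 181 RPKM. *Uqcrfs1* and *Cyc1*, both of complex III, averaged 27.6 RPKM against 114 RPKM and 52.9 RPKM against 168 RPKM.

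Other parts of energy metabolism did not follow. Their shares of falls lay near the background of 48.5%, and 17.3% of all tested genes rose. Median log2 fold changes were −0.91 for the tricarboxylic acid cycle and −0.77 for glycolysis, beside −0.93 over all genes. Both list medians were below that of all genes with a pseudocount of 1 RPKM, without a filter and under quantile normalization. Of 15 genes of the tricarboxylic acid cycle, 0 rose and 6 fell, among them *Ogdh* (6.77 to 7.65 RPKM against 36.8 to 38.2 RPKM) and *Dlst* (2.48 to 2.56 RPKM against 17.4 to 18.5 RPKM), which both encode parts of the oxoglutarate dehydrogenase complex. Of 22 genes of glycolysis, 3 rose and 11 fell. *Hk2*, a hexokinase, was at 10.9 to 11.4 RPKM against 0.735 to 0.994 RPKM, and *Ldhb*, a lactate dehydrogenase, at 473 to 481 RPKM against 217 to 231 RPKM.

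The third glycolysis gene that rose was *Eno1b* (chr18:48045335-48048378), a close copy of the enolase gene *Eno1*. It had 85.6, 80.9, 81.8 and 75.4 RPKM in libraries labelled 9m OHC and 0.0738, 0.0729, 0.513 and 0.374 RPKM in those labelled 9m IHC (log2 fold change 8.04 ± 0.55, adjusted p = 7.9e-05). *Eno1* itself was lower under the OHC label, at 41 to 44.7 RPKM against 122 to 129 RPKM. The sum of both genes was 119 to 129 RPKM in libraries labelled 9m OHC and 123 to 129 RPKM in those labelled 9m IHC, and these ranges overlapped. Of the 75-base windows of *Eno1b*, 79.7% also occur in transcripts of other genes, so reads of the copies cannot be assigned with certainty. The labels thus differed in the split between the copies.

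**Figure D2:**
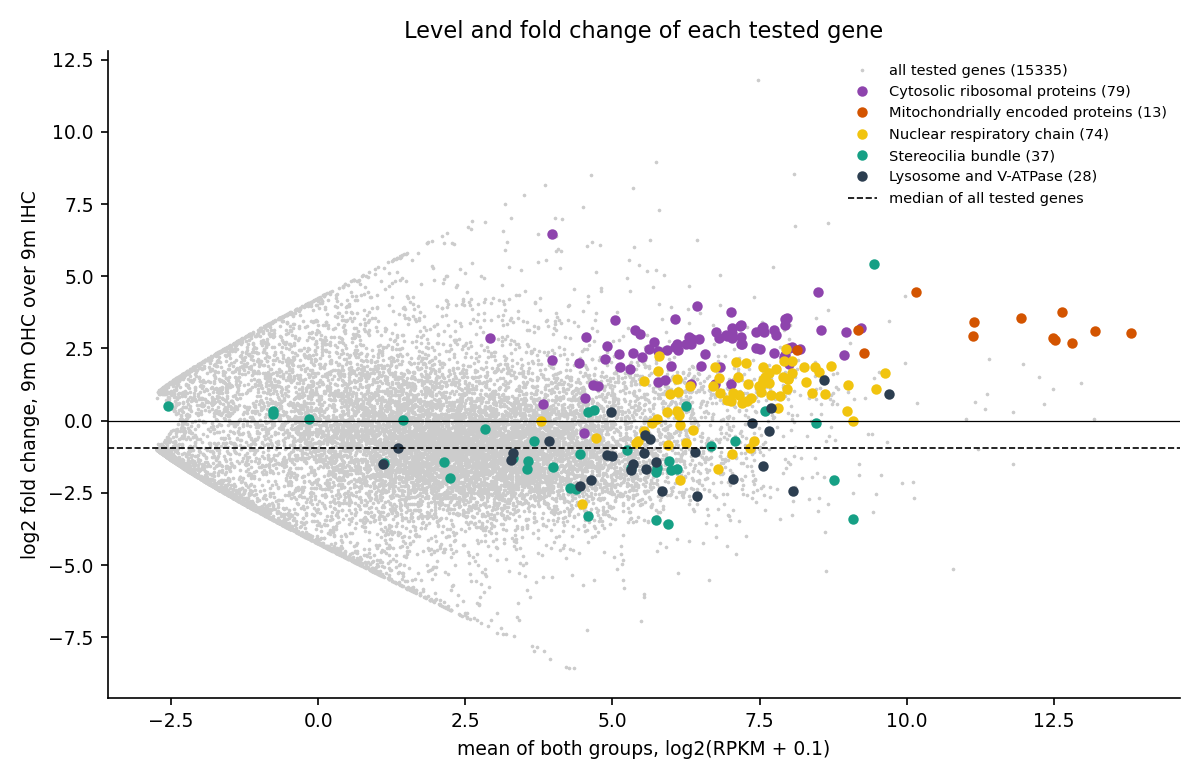
Log2 fold change of 9m OHC over 9m IHC (vertical axis) against the mean of both groups on the log2(RPKM + 0.1) scale (horizontal axis) for the 15335 tested genes, with members of 5 lists in color. All 13 mitochondrially encoded genes and 76 of 79 ribosomal protein genes were called higher, far above the dashed median of −0.93.

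Further genes with large rises had unrelated roles. *Pim1* (chr17:29490812-29496111), a serine/threonine kinase, had 32.6, 33.7, 30.9 and 32.1 RPKM in libraries labelled 9m OHC and 0.295, 0.328, 0.289 and 0.236 RPKM in those labelled 9m IHC (log2 fold change 6.39 ± 0.08, adjusted p = 5.4e-07). *Cbx3*, encoding the heterochromatin protein HP1 gamma, had 526, 535, 559 and 553 RPKM against 4.98, 4.93, 4.95 and 5.28 RPKM (log2 fold change 6.73 ± 0.03). *Actb*, encoding beta-actin, had 1392, 1384, 1338 and 1362 RPKM against 31.2, 31.2, 32.2 and 31.2 RPKM (log2 fold change 5.44 ± 0.02). The near-identical gamma-actin gene *Actg1* had a mean of 341 RPKM against 361 RPKM. These genes showed the same order at 26 months: the means of *Pim1* were 33.6 RPKM under 26m OHC and 0.217 RPKM under 26m IHC, those of *Cbx3* 474 RPKM and 6.21 RPKM, and those of *Actb* 2398 RPKM and 15.3 RPKM. 

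*Acot2*, a mitochondrial acyl-CoA thioesterase, was at 109 to 112 RPKM in libraries labelled 9m OHC and 0.551 to 0.679 RPKM in those labelled 9m IHC. *Inmt*, a methyltransferase, was at 8.31 to 9.75 RPKM and listed at 0 RPKM in all 4 libraries labelled 9m IHC. The gene model *Gm10260* was at 349 to 365 RPKM and likewise listed at 0 RPKM under 9m IHC, with 95.0% of its windows shared with other genes. Of the protein-coding genes with the largest rises, *Gm10282*, *Gm4737* and *Gm7879* shared 59.1%, 88.9% and 71.4% of their windows with other genes, and their values are uncertain for the same reason. Processed pseudogenes, which are retrotransposed copies of transcripts, rose in 63 and fell in 15 of 94 tested, with a median log2 fold change of 1.78.

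By difference in RPKM, the protein-coding genes highest under the label 9m OHC after the mitochondrial ones were *S100a1*, *Acbd7* and *Ubb*. *S100a1*, a calcium-binding protein, was at 11200 to 11450 RPKM against 4547 to 4612 RPKM. *Acbd7*, an acyl-CoA-binding protein, was at 6286 to 6552 RPKM against 1602 to 1716 RPKM. *Ubb*, a polyubiquitin gene, was at 7783 to 7847 RPKM against 3619 to 3710 RPKM. The rises of *S100a1* and *Ubb* turned into small falls under quantile normalization, as given in the closing section.

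Among the genes with the largest loss in level was *Fcrlb*, an Fc receptor-like gene, with 103, 98.4, 91 and 97.4 RPKM in libraries labelled 9m OHC and 3461, 3463, 3404 and 3386 RPKM in those labelled 9m IHC (log2 fold change −5.14 ± 0.04, adjusted p = 5.0e-07). *Ndfip1*, an adaptor of Nedd4-family ubiquitin ligases, averaged 20.7 RPKM against 769 RPKM (log2 fold change −5.21 ± 0.05). *Gsn*, the actin-severing protein gelsolin, was at 90.6 to 94.9 RPKM against 974 to 1015 RPKM, and *Ceacam16*, a protein of the tectorial membrane, at 295 to 311 RPKM against 1879 to 1963 RPKM. *Fbxo2*, an F-box protein that recognizes glycoproteins, had the largest difference, 1823 to 1958 RPKM against 5184 to 5423 RPKM. *Cldn9*, a claudin of HC tight junctions, was at 349 to 362 RPKM against 1555 to 1625 RPKM, and *Tspan13*, a tetraspanin, at 137 to 144 RPKM against 1231 to 1265 RPKM.

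Several genes were expressed under the label 9m IHC and listed at 0 RPKM in all 4 libraries labelled 9m OHC. They included *Sntg2*, a syntrophin (37.3 to 38.7 RPKM), *Ip6k3*, an inositol hexakisphosphate kinase (35.6 to 37.8 RPKM), *Rtn4rl2*, a Nogo receptor homolog (30.2 to 30.8 RPKM), and *Btg3* (15 to 17.1 RPKM). *Pttg1*, securin, was at 0 to 0.0254 RPKM against 27.9 to 29.3 RPKM, and *Pdk2*, a pyruvate dehydrogenase kinase, at 0 to 0.0321 RPKM against 19.4 to 20.8 RPKM. At 26 months *Sntg2* had means of 2.93 RPKM under the OHC label and 2.06 RPKM under the IHC label.

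Genes of HC function fell more often than they rose. Of 37 tested genes of the stereocilia bundle, 1 rose (*Actb*) and 22 fell, with a median log2 fold change of −1.39. *Capza1*, a subunit of the actin-capping protein, was at 8.78 to 9.76 RPKM against 112 to 114 RPKM. Of 11 genes of mechanotransduction, 0 rose and 5 fell (median −0.70, above that of all genes). The list median was below that of all genes with a pseudocount of 1 RPKM, without a filter and under quantile normalization. *Cib2*, a calcium-binding partner of the transduction channel, was at 243 to 253 RPKM against 912 to 928 RPKM, while *Lhfpl5*, another component of the complex, was at 326 to 344 RPKM against 466 to 494 RPKM and not called.

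Of 27 genes of the ribbon synapse, 1 rose (*Cplx2*, a complexin) and 12 fell (median −0.76). *Rab3a*, a vesicle-bound GTPase, was at 48.3 to 49.4 RPKM against 100.5 to 104 RPKM, and *Vamp2*, a vesicle SNARE, at 13.1 to 13.4 RPKM against 101 to 105 RPKM. Of 26 ion channel and pump genes, 3 rose and 12 fell. *Kcna10*, a voltage-gated potassium channel, was at 167 to 173 RPKM against 413 to 421 RPKM, and *Slc24a3*, a sodium/calcium/potassium exchanger, at 4.24 to 4.71 RPKM against 101 to 106 RPKM. *Clic3*, a chloride intracellular channel protein, rose (15.3 to 17.8 RPKM against 0.664 to 0.993 RPKM). The shares of the ribbon synapse, channel and mechanotransduction lists that fell lie near the background of 48.5%, and that of the stereocilia list, 22 of 37, somewhat above it.

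Lists of proteostasis and stress differed from each other. Over all tested genes, 17.3% rose and 48.5% fell. Of 29 autophagy genes, 1 rose and 21 fell (median −1.39). *Gabarap*, a ubiquitin-like protein of the autophagosome membrane, rose (211 to 214 RPKM against 79.4 to 82.1 RPKM), whereas *Tfeb*, a transcription factor for lysosomal genes, was at 0 to 0.00844 RPKM against 2.28 to 2.52 RPKM. Of 28 genes of the lysosome and V-ATPase, 1 rose (*Atp6v1f*, a V-ATPase subunit) and 18 fell, with *Lamp1*, a lysosomal membrane protein, at 81.7 to 83.6 RPKM against 451 to 457 RPKM. Of 25 genes of endoplasmic reticulum chaperones and stress, 2 rose (*Hyou1* and *Trib3*) and 15 fell, with *Hspa5*, encoding BiP, at 92.9 to 94.3 RPKM against 454 to 459 RPKM. Proteasome genes had a median log2 fold change of 0.14, with 5 rises and 5 falls of 31. Those that rose encode subunits of the core particle (*Psma3*, *Psma5*, *Psma7*, *Psmb3* and *Psmb6*), and those that fell subunits of the regulatory particle (*Psmd1*, *Psmd2*, *Psmd3*, *Psmd6* and *Psmd13*).

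Of 37 DNA repair genes, 5 rose and 24 fell (median −1.29), where 17.3% of all tested genes rose and 48.5% fell. *H2afx*, the histone variant phosphorylated at DNA breaks, was at 0 to 0.11 RPKM against 12.8 to 13.2 RPKM. Of 25 immediate early genes, which neuronal and mechanical stimulation induces within minutes, 4 rose and 16 fell (median −1.66). *Cyr61*, a matricellular protein, was at 35.7 to 37.3 RPKM against 203 to 219.9 RPKM, *Dusp1*, a phosphatase of MAP kinases, was at 1.08 to 1.67 RPKM against 19.9 to 20.8 RPKM, and *Btg1*, an antiproliferative gene, rose (127 to 132 RPKM against 33.4 to 35.6 RPKM). Of 32 genes of antioxidants and metallothioneins, 9 rose and 10 fell. The metallothioneins *Mt1* (92.8 to 105 RPKM against 3.72 to 4.08 RPKM) and *Mt2* (31 to 35.8 RPKM against 0.661 to 0.944 RPKM), which bind zinc and copper, had the largest changes of the list.

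Of 31 genes of the interferon response and MHC class I, 7 rose and 14 fell (median −0.66, and above 0 at 0.13 under median ratio scaling and 0.24 under quantile normalization). The share that fell lay near the 48.5% of all tested genes, of which 17.3% rose. *Ifi27l2a*, an interferon-induced gene, had 106, 99.6, 108 and 105 RPKM against 3.5, 1.59, 2.62 and 3.13 RPKM (log2 fold change 5.22 ± 0.06), and *B2m*, the light chain of MHC class I, was at 93.1 to 98.5 RPKM against 32.7 to 33.7 RPKM. *Ifitm2*, which restricts virus entry, was at 52.8 to 55.8 RPKM against 1.83 to 2.48 RPKM. Of 10 tested nuclear long noncoding RNAs, 8 rose and 0 fell. *Malat1*, which is retained in the nucleus, was at 7148 to 7381 RPKM against 2446 to 2609 RPKM, and *Gas5*, a host of small nucleolar RNAs, at 55.8 to 56.4 RPKM against 7.93 to 8.41 RPKM. Under quantile normalization *Malat1* had a log2 fold change of −0.025.

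Of the remaining lists, translation initiation and elongation had 9 rises and 6 falls of 30 genes (median 0.68), with *Eef1a1*, the elongation factor, at 546 to 557 RPKM against 139 to 143 RPKM. Splicing factors had 5 rises and 9 falls of 34 (median −0.22), and histone and DNA modification had 8 rises and 12 falls of 38 (median −0.36). Both medians were above 0 under median ratio scaling (0.46 and 0.32) and quantile normalization (0.43 and 0.33). Heat shock genes had 3 rises and 9 falls of 18, with *Hspa8*, the constitutive HSP70, at 319 to 326 RPKM against 1183 to 1197 RPKM and *Cryab*, alpha-B crystallin, at 386 to 404 RPKM against 64.8 to 68.5 RPKM. Circadian clock genes had 3 rises and 10 falls of 19, with *Nr1d1*, encoding REV-ERB alpha, at 28.7 to 29.7 RPKM against 72.5 to 77.4 RPKM. Intrinsic apoptosis had 2 rises (*Bcl2l2* and *Xiap*, which both inhibit cell death) and 10 falls of 23, and cell cycle arrest and senescence had 6 rises and 10 falls of 20. Insulin, IGF and FoxO signaling had 6 rises and 11 falls of 29 (median −0.52, but 0.17 under median ratio scaling and 0.21 under quantile normalization). Over all tested genes, 17.3% rose and 48.5% fell. The shares of the heat shock, circadian clock, apoptosis and cell cycle lists that fell lie near this background.

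**Figure D3:**
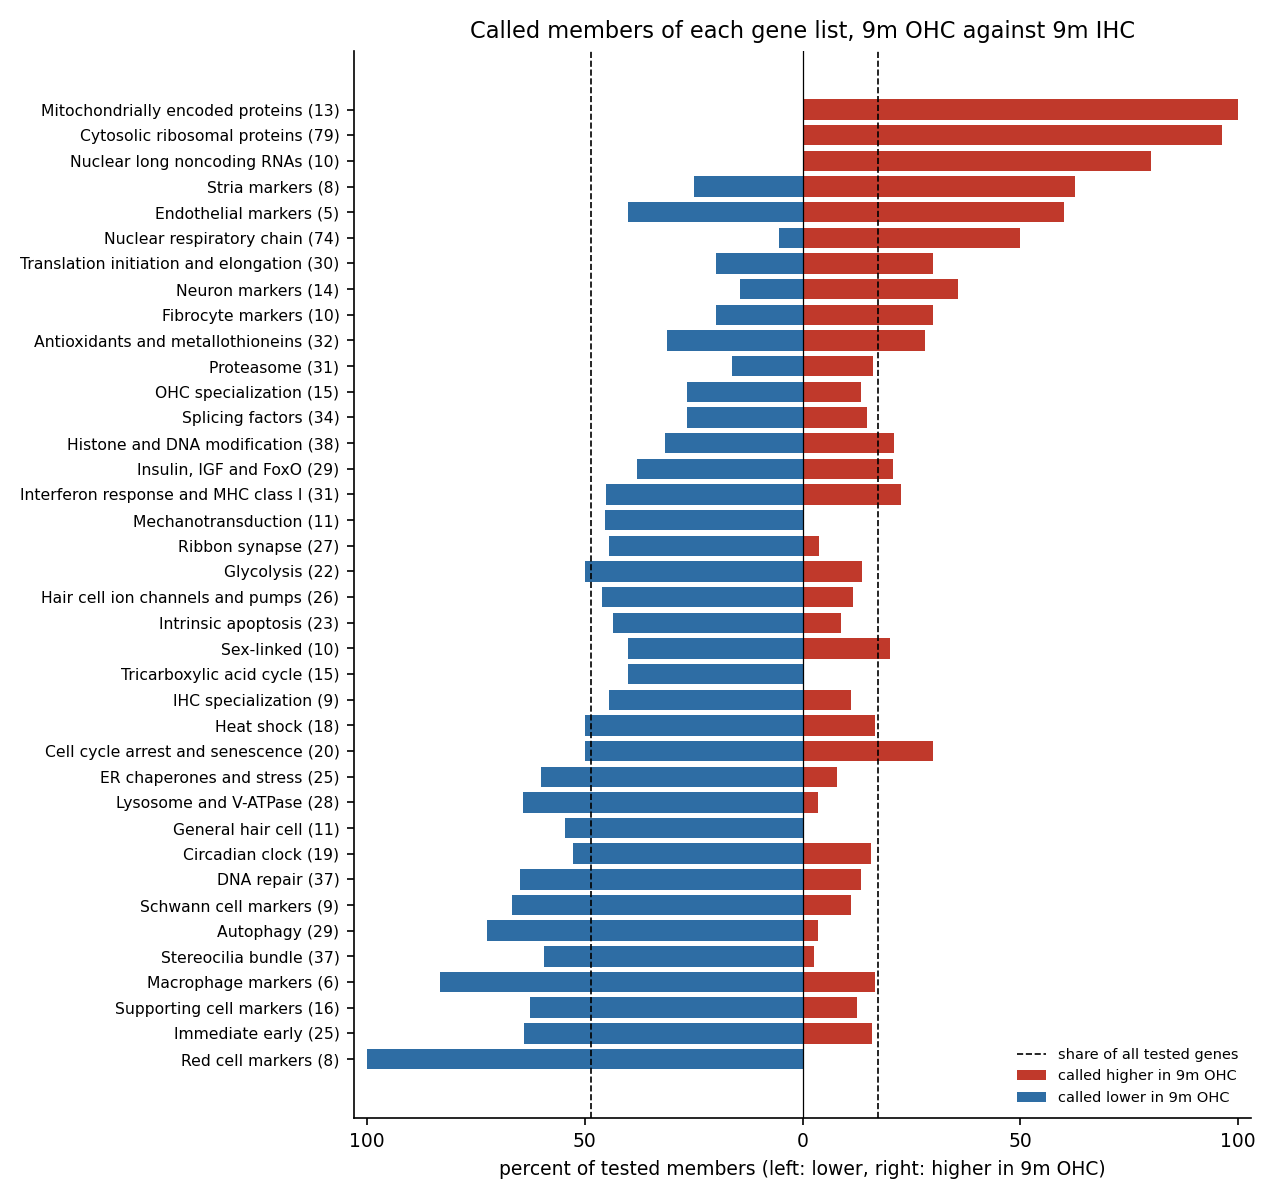
Percent of the tested members of each gene list (number in brackets) called higher (red, right) or lower (blue, left) under the label 9m OHC, relative to 9m IHC, for lists with at least 5 tested members, ordered by median fold change. Dashed lines mark the shares among all tested genes, 17.3% higher and 48.5% lower.

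Markers of other cochlear cells moved between the labels as well, where 17.3% of all tested genes rose and 48.5% fell. Red cell markers were all lower under the label 9m OHC (8 of 8), with a summed level of 11.97 to 14.29 RPKM against 401.8 to 407.5 RPKM. Supporting cell markers fell in 10 and rose in 2 of 16, with sums of 425.5 to 439.7 RPKM against 1352 to 1358 RPKM, and its most abundant members were *Gjb2* (82.4 to 88.4 RPKM against 562 to 567 RPKM) and *Gjb6* (117 to 124 RPKM against 472 to 479 RPKM), the connexins of the epithelium. Neuron markers rose in 5 and fell in 2 of 14, with sums of 159.8 to 161.8 RPKM against 227.5 to 232.8 RPKM, and *Prph* was at 0 RPKM in all 8 libraries. Fibrocyte markers rose in 3 and fell in 2 of 10 and summed to 328.9 to 337.2 RPKM against 205.4 to 211.3 RPKM, with *Otos* (122 to 132 RPKM against 21.4 to 22.6 RPKM) and *Apod* (78 to 82.3 RPKM against 13.3 to 14.1 RPKM) higher under the OHC label. *Lum*, encoding lumican, was at 63.4 to 70.8 RPKM against 122 to 129 RPKM, a log2 difference of −0.89 that was below the 2-fold threshold.

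Schwann cell markers rose in 1 and fell in 6 of 9 (sums 112.7 to 114.8 RPKM against 77.15 to 79.09 RPKM), and *S100b*, a calcium-binding protein, was the member that rose (76.1 to 78.1 RPKM against 10.1 to 10.6 RPKM). Of 15 macrophage markers 6 were tested, and *Cd74* (72.9 to 79 RPKM against 1.18 to 1.64 RPKM) was the member that rose. The other 5 (*Lyz2*, *Ctss*, *Tyrobp*, *C1qb* and *C1qc*) all fell, and the median log2 fold change was −1.49. These 5 were low, as the list summed to 4.4 to 5 RPKM under the label 9m IHC, *Cd74* included. With a filter at a mean of 1 RPKM, 2 members were tested, 1 rose and 1 fell, and the median was 0.86. Defining macrophage genes such as *Csf1r* and *Adgre1* were at 0 RPKM in all 8 libraries, and *Tyrobp* and *Ctss* at 0 RPKM in the 4 labelled 9m OHC. Strial markers summed to 11.75 to 12.55 RPKM against 5.86 to 6.52 RPKM, with 5 rises and 2 falls of 8. Endothelial markers summed to 3.58 to 4.34 RPKM against 7.59 to 8.45 RPKM, most of it *Egfl7*, which fell. Of the 5 tested, 3 rose (*Cdh5*, *Flt1* and *Tek*, all close to 0 RPKM under the label 9m IHC) and 2 fell, with a median log2 fold change of 1.12. Granulocyte, lymphocyte and bone markers had 1, 1 and 2 tested members. *S100a8*, a granulocyte gene, was at 3.04 to 4.42 RPKM against 0 to 0.0461 RPKM, and *Spp1*, osteopontin, at 135 to 139.7 RPKM against 126 to 129 RPKM. The part of such cells in the calls above was not tested.

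Sex-linked genes differed as well. The Y-linked gene *Ddx3y* was at 0 to 0.0214 RPKM in libraries labelled 9m OHC and 2.15 to 2.4 RPKM in those labelled 9m IHC, and *Eif2s3y* at 0 to 0.0241 RPKM against 3.03 to 3.48 RPKM. *Xist*, expressed from the inactive X chromosome of females, averaged 6.6 RPKM against 1.61 RPKM. Transcripts of *Xist* and of the Y chromosome were both found under the label 9m IHC, while all 4 listed Y-linked genes were lower under the label 9m OHC. Sex and label cannot be told apart in this comparison.

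Calls also varied with the length of genes. Protein-coding genes were ordered by exonic length and divided into 10 equal groups. In the shortest group (102 to 1658 bases, 1353 genes) 33.2% rose and 37.3% fell, with a median log2 fold change of 0.10. In the other 9 groups 10.6% to 19.0% rose, and the medians were all below −0.6. Without ribosomal protein and respiratory chain genes, 30.1% of the 1274 remaining short genes rose and 39.5% fell (median −0.06). Across all 13520 protein-coding genes, the Spearman correlation of length and log2 fold change was −0.04, and the longest group fell less often (38.3%) than those in between. The share of a gene's sequence that occurs in other genes moved with the calls in the same sense: 15.3% of 9364 genes with no shared window rose, against 33.5% of 851 genes with more than 50% of their windows shared.

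**Figure D4:**
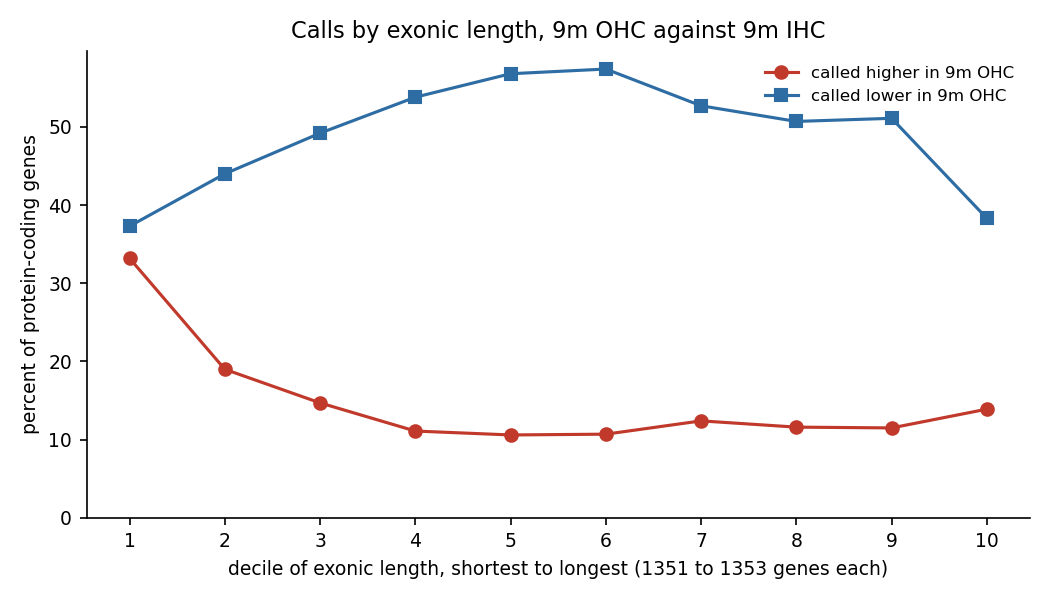
Percent of protein-coding genes called higher (red circles) or lower (blue squares) under the label 9m OHC, relative to 9m IHC, by decile of exonic length. The shortest decile had the largest share of rises, 33.2%, and the shortest and longest deciles the smallest shares of falls, 37.3% and 38.3%.

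The libraries of 26 months were used to see whether the difference resembled that of the same labels at another age. Over 17056 genes, the mean profile labelled 9m OHC had a Spearman correlation of 0.808 with 9m IHC, 0.821 with 26m OHC and 0.757 with 26m IHC. The share of genes more than 2-fold apart was 59.3% from 9m IHC, 43.3% from 26m OHC and 61.7% from 26m IHC. The profile labelled 9m IHC was closest to 26m IHC, with a correlation of 0.90 and 30.3% of genes 2-fold apart. These are descriptions across genes, which are not independent replicates.

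The same labels at 26 months share no library with those at 9 months. There, 10185 of 16043 genes (63.5%) were called between libraries labelled 26m OHC and 26m IHC, 29.0% higher and 34.4% lower under the OHC label. Of all calls, 4983 were shared in direction, 49.4% of the calls at 9 months and 48.9% of those at 26 months. Of the 2650 rises at 9 months, 57.2% also rose at 26 months, and of the 7435 falls, 46.6% also fell. Opposite directions were found for 1322 genes, 259 of which were higher under the OHC label at 9 months and lower at 26 months. Across the 14322 genes tested at both ages, the log2 fold changes had a Pearson correlation of 0.466 and a Spearman correlation of 0.460.

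Ribosomal protein and mitochondrial genes were higher under the OHC label at 26 months too, in 73 of 79 and 13 of 13 genes. The OHC and IHC lists did not. Against 29.0% higher and 34.4% lower over all genes, 0 of 15 OHC genes rose at 26 months and 15 fell (median log2 fold change −4.14), and 9 of 9 IHC genes rose and 0 fell (median 3.01). The 9-month medians were −0.14 and −0.97. By these lists the libraries labelled 26m IHC carried the OHC pattern. Rises under the OHC label at both ages therefore cannot be read as a trait of OHCs.

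The 9-month difference of the labels minus the 26-month difference was tested as an interaction over all 4 groups. Marker genes go against the labels 9m OHC and 26m IHC. Under the label 26m OHC, too, the IHC list summed higher (2252 to 2287 RPKM) than the OHC list (1271 to 1285 RPKM). For these reasons the interaction cannot show whether a difference between OHCs and IHCs depended on age. It was called for 9642 of 17056 genes (56.5%), 3089 with a more positive difference at 9 months and 6553 with a more negative one. Of the OHC list 13 of 15 genes were called, and of the IHC list all 9. The interaction was 6.61 ± 0.06 for *Slc26a5* (adjusted p = 3.2e-09) and 5.04 ± 0.05 for *Ocm* on the log2 scale. It was −3.04 ± 0.04 for *Otof* (adjusted p = 7.8e-09), −3.28 ± 0.05 for *Slc17a8* and −6.09 ± 0.08 for *Tbx2*. It was not called for *Pim1* (−0.34 ± 0.10), *Eno1b* (−0.43 ± 1.02) or *Cbx3* (0.50 ± 0.05), and for the ribosomal protein genes it was called in 5 of 79.

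**Figure D5:**
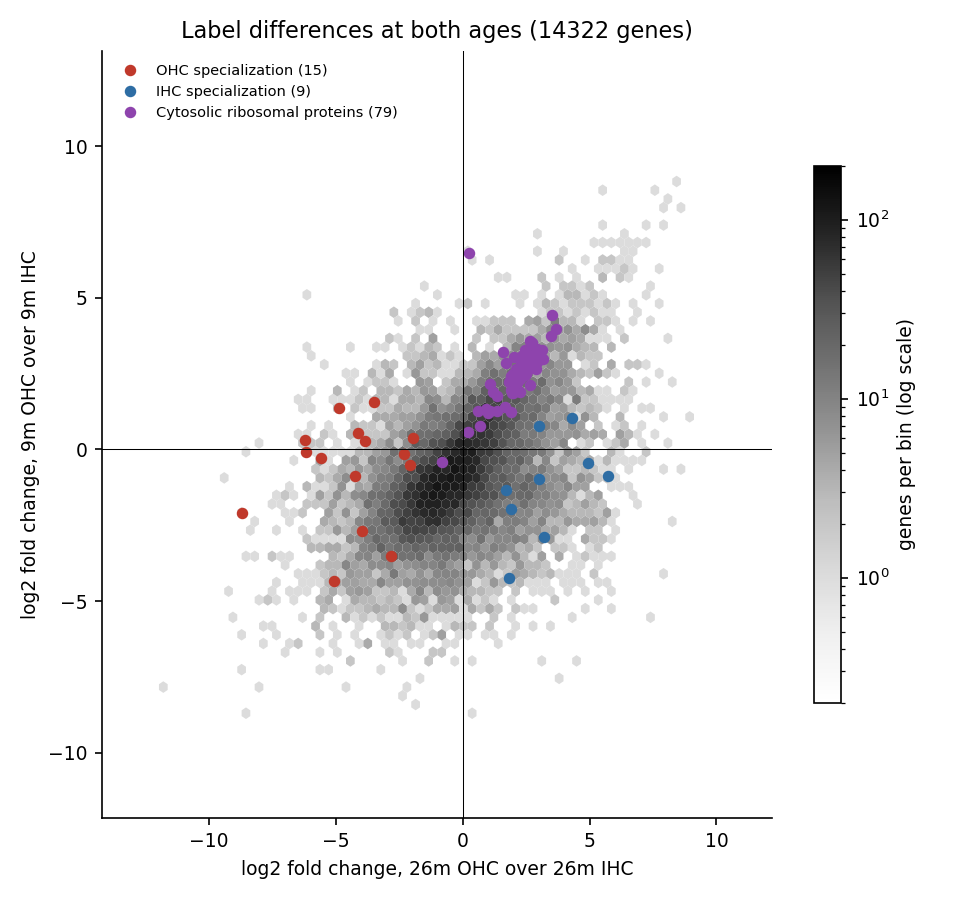
Log2 fold change of 9m OHC over 9m IHC (vertical axis) against that of 26m OHC over 26m IHC (horizontal axis) for 14322 genes, in gray by number of genes, with 3 lists in color. The 15 OHC genes lie left of 0 and the 9 IHC genes right of 0 at 26 months, with both lists on either side of 0 at 9 months, whereas ribosomal protein genes lie high at both.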

How the data were processed

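The authors mapped RNA-seq reads to the mouse genome (mm10, GRCm38) with CLC Genomics Workbench and deposited 1 table of RPKM values for 49585 genes in 16 libraries. These values are normalized for exonic length and mapped reads. How reads that match several genes were assigned is not given in the sources used here. The labels and the study's methods name different versions of the low-input cDNA kit. Reads per library were recovered from RPKM and exonic length in the GENCODE annotation of GRCm38, which matched 49326 genes.

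Genes with a mean of at least 0.1 RPKM in 1 of the groups compared were tested with limma (version 3.58.1, R 4.3.3; empirical Bayes with a trend) on log2(RPKM + 0.1), which understates changes of low genes, with Benjamini-Hochberg adjustment over all tested genes. Libraries 1 and 2 and libraries 3 and 4 were averaged within a group. The interaction was fitted over all 4 groups. On simulated data, 50 of 50 genes were recovered at each log2 change of 1.5 and 3 in either direction. Of 14394 unchanged genes, 10 (0.07%) were called. The simulation changed few genes, all at 1 RPKM or more and in balanced directions, with a small preset noise. In the data 65.8% of the tested genes were called, mostly as falls. The simulated error rate therefore does not carry over to these calls.

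The comparison and the gene lists were chosen with earlier results of these data known. Named genes were all members of the OHC, IHC and general HC lists and the genes of the comparison's rule, the 12 called protein-coding genes with the largest RPKM difference in each direction, the 10 largest fold changes in each direction, up to 4 members of every other list (2 by level and 2 by fold change) and the 5 most abundant genes at 0 RPKM in 1 group. Not all of them are printed, and 2 are not reported here. Genes named outside this rule, such as the exceptions within a list, *Actg1*, *Eno1*, *Xist*, *Prph*, the macrophage genes at 0 RPKM and the ribosomal protein genes whose starts are printed, were chosen after their values were seen. Alternatives were other pseudocounts, filters, scalings and thresholds, unaveraged libraries, the fit over 4 groups, a replicate block and leaving out each averaged sample. Sequence sharing was counted over 75-base windows of annotated transcripts every 25 bases. Promoter sequences were those of RefSeq (GRCm38.p6).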

Additional observations from a re-analysis of the deposited data

Results flagged for a closer look

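For 20 of the 207 named genes with an interaction test, the difference between the labels ran in opposite directions at the 2 ages, and the interaction test of that difference called it. The values of 19 are given here. Over all genes, 1322 of the 14322 tested at both ages were called in opposite directions, a share close to that of the named genes. Marker genes go against the labels 9m OHC and 26m IHC, and under 26m OHC the IHC list summed above the OHC list. The opposite directions therefore do not show an effect of age on a difference between the cell types. Interaction values are the log2 fold change of 9m OHC over 9m IHC minus that of 26m OHC over 26m IHC. Of the OHC genes, *Ocm* (5.04) and *Chrna10* (6.24) were higher under the OHC label at 9 months and lower at 26 months. Of the IHC genes, *Otof* (−3.04), *Tbx2* (−6.09), *Dnm1* (−3.85) and *Atp2a3* (−6.10) went the other way. So did the actin-severing protein *Gsn* (−4.50), the glutaminyl cyclase *Qpct* (−5.95), the leucine-rich repeat gene *Lrrn1* (−11.25) and the sodium pump subunit *Atp1b1* (−3.83). The small heat shock protein *Hspb8* (−7.22), the autophagy receptor *Optn* (−6.79), the orphan nuclear receptor *Nr4a1* (−7.84) and *Casp8* (−3.96), an initiator of cell death, showed the same order. 

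Some markers of other cell types also changed direction between the ages. The connexin *Gjb2* (−4.28), the neurofilament *Nefl* (−6.34) and the complement gene *C1qb* (−8.63) were lower under the OHC label at 9 months and higher at 26 months. The strial channel subunit *Kcne1* (4.87) and the granulocyte gene *S100a8* (11.27) were higher under the OHC label at 9 months and lower at 26 months.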

How the results depend on the processing

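The direction of the calls of named genes held under every alternative except quantile normalization, where the log2 fold changes of *S100a1* (−0.19), *Ubb* (−0.46) and *Malat1* (−0.025) turned negative; the cause was not tested. A pseudocount of 1 RPKM, which shrinks low genes, left 6302 calls at 9 months, 1606 higher and 4696 lower, and 5761 for the interaction, 1578 higher and 4183 lower. A threshold of 2 on the log2 scale left 4865 calls, 1248 higher and 3617 lower. Quantile normalization gave 4312 higher and 4677 lower genes at 9 months and 4839 higher for the interaction. With a filter at a mean of 1 RPKM, which tests fewer genes, the interaction called 2036 higher. Leaving out 1 averaged sample at a time gave 10022 to 10065 calls, 2605 to 2676 higher and 7374 to 7427 lower. With the replicate number as a block, 10096 genes were called, 2658 higher and 7438 lower. The numbers do not pair the samples beyond a shared number, and the deviations of same-numbered samples correlated at 0.082 between the 9-month groups. Of 206 named genes tested, median ratio scaling removed the call of 17 and gave one to 13, and a pseudocount of 1 RPKM removed 6. The depth recovered from RPKM and exonic length is approximate, as 71.5% to 72.6% of values above 0 came out as whole reads within 0.001.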

Other observations

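In the GC-richest decile of protein-coding genes the median log2 fold change of 9m OHC over 9m IHC was −1.34. Hemoglobin genes took 0.000893% to 0.00105% of the mapped reads in libraries labelled 9m OHC and 0.0289% to 0.0293% in those labelled 9m IHC. Among the named genes not described above, *Prkaa1*, a catalytic subunit of AMP-activated kinase, was at 0.0103 to 0.0715 RPKM under the label 9m OHC and 10.2 to 11.1 RPKM under 9m IHC (log2 fold change −6.26 ± 0.06 by limma). *Itm2b*, an integral membrane protein processed by furin, was at 402 to 420.4 RPKM under the label 9m OHC and 1768 to 1809 RPKM under 9m IHC.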
